A study of Arabidopsis thaliana with 4 samples.

Results

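The genes described here encode proteins of the cytosolic ribosome, the particle that translates the messages of nuclear genes in leaf cells. They are 49 loci of the 32982 in the deposited counts, taken by locus identifier from a list of genes chosen by function, with earlier results of these data known. Of these, 34 belong to the small (40S) subunit and 15 to the large (60S) subunit, and together they stand for 34 different proteins, 14 of which are represented by more than 1 gene. The reference annotation describes each of the 49 as a ribosomal protein or, for the S10, S11 and S28 genes, by a domain of that protein, and all 49 passed the filter on low counts. A further 174 cytosolic ribosomal protein genes lie outside the 49 and serve as a comparison.

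In Arabidopsis each ribosomal protein is encoded by a small family of near-identical genes, and the subunits need their proteins in matching amounts. Transcripts of these genes are abundant where cells grow and divide, and mutants in several of them have narrow, pointed leaves. Translation capacity in plants is tied to the TOR kinase and to S6 kinase, which acts downstream of TOR and phosphorylates protein S6.

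Leaves of Arabidopsis thaliana were sequenced as RNA, in 4 groups that each hold 3 libraries. Dox systemic leaves were the distant leaves of plants whose local leaves had been given Dox, and control systemic leaves those of the control plants; the labels give neither a treatment of its own. Dox local leaves received Dox itself at 25 um/g, the unit as the labels write it, and control local leaves received water. The labels do not spell out the name Dox, name no accession or mutant, and give neither the age nor the position of a leaf nor the time from treatment to harvest. All 4 groups shared the same sucrose-containing agar medium and long days. The series title ties the treatment to stress of the mitochondria and to adaptation of distant leaves.

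Libraries held 18981328 to 21380652 counts and 21429 to 22325 genes with at least 1 count. Of 6 leaf markers, 5 were detected, with a summed level of 15131 to 25573 CPM (counts scaled to library size, with TMM factors), while LHB1B2 was listed at 0 throughout. Root markers summed to at most 0.0901 CPM and shoot apex markers to at most 0.312 CPM. Flower markers reached a sum of 1.82 CPM, in Dox systemic library 2. Of these 4 markers only 1, PI, passed the filter on low counts. PI averaged 0.898 CPM in Dox systemic against 0.221 CPM in Dox local leaves. Its systemic over local log2 fold change in Dox plants was 1.99 (edgeR, unadjusted p = 0.0194, adjusted p = 0.234). For control plants that value was 0.84. A part of PI-expressing tissue in the position differences was not tested. Within a group the 3 libraries differed far beyond counting noise over the 49 genes, where the median of chi-square divided by its degrees of freedom was 66.8 for Dox systemic, 22.3 for control systemic, 77.0 for Dox local and 30.8 for control local leaves. They were treated as 3 replicates. No label says that separate plants were used, so the spread behind every p-value may be technical.

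The 49 genes took 0.981, 0.916 and 1.17% of all counts in the 3 Dox systemic libraries and 0.971, 0.949 and 0.896% in the 3 control systemic libraries. In Dox local libraries they took 0.598, 0.685 and 0.815%, and in control local libraries 0.624, 0.752 and 0.722%. In these shares of raw counts every systemic library therefore lay above every local one, while Dox and control libraries overlapped at both leaf positions. The gap was narrow with TMM factors. The median deviation of the 49 from their own mean log2 CPM was 0.06 in Dox systemic library 2, the lowest systemic one. It was 0.04 in Dox local library 3, the highest local one. The ratio of 40S to 60S counts stayed between 1.47 and 1.62 in all 12 libraries. The 174 other ribosomal protein genes took 2.17, 2.10 and 2.57% in Dox systemic libraries and 2.20, 2.04 and 2.02% in control systemic libraries, against 1.33, 1.46 and 1.85% in Dox local libraries and 1.29, 1.58 and 1.53% in control local libraries. In bulk leaf tissue, fewer cells of a type that holds many ribosomes and less ribosomal protein transcript per cell cannot be told apart.

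**Figure D1:**
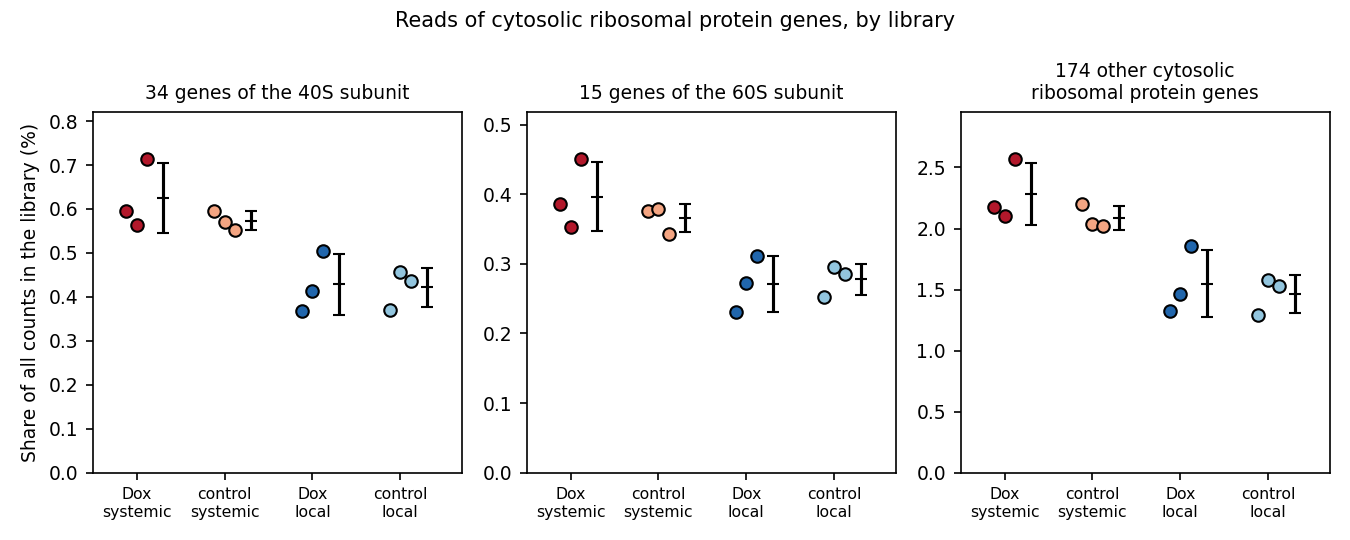
Share of all counts (%) taken by the 34 genes of the 40S subunit, the 15 genes of the 60S subunit and the 174 other cytosolic ribosomal protein genes, 1 point per library, with the mean and SD of 3 libraries beside each group. In each panel all 6 systemic libraries lie above all 6 local libraries, and the Dox and control points overlap within each position. Shares are of raw counts, without TMM factors.

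Single libraries stood apart in the set as a whole. On the log2 CPM scale, the median deviation of the 49 genes from their own means over all libraries was 0.36 in Dox systemic library 3, where all 49 genes were above their mean, against 0.07 and 0.06 in the other Dox systemic libraries. It was -0.47 in control local library 1, where only 1 of the 49 was above its mean, against -0.24 and -0.01 in the other control local libraries. Dox local library 1 had the lowest TMM factor, 0.787, and 115.5 CPM of HSFA2, a heat stress transcription factor that stayed at or under 3.26 CPM elsewhere. Medians over the 49 that rest on Dox systemic library 3 or control local library 1 are given with and without them. Counts of genes without overlap were not taken without either library.

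The genes moved together across the libraries. The median correlation (Pearson's r of log2 CPM over 12 libraries) among all 1176 pairs of the 49 genes was 0.81, with a range of 0.10 to 0.98, and 0.69 once group means had been subtracted, so much of the shared variation lay between libraries of the same group. These points share libraries and scaling factors, and the value is a description without a test. The gene least like the mean of the others was RPS10B (r = 0.50 over 12 libraries), followed by the S9 gene AT5G39850 (r = 0.53) and the S23 gene AT3G09680 (r = 0.58). The most like it was the S12 gene AT2G32060 (r = 0.99).

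**Figure D2:**
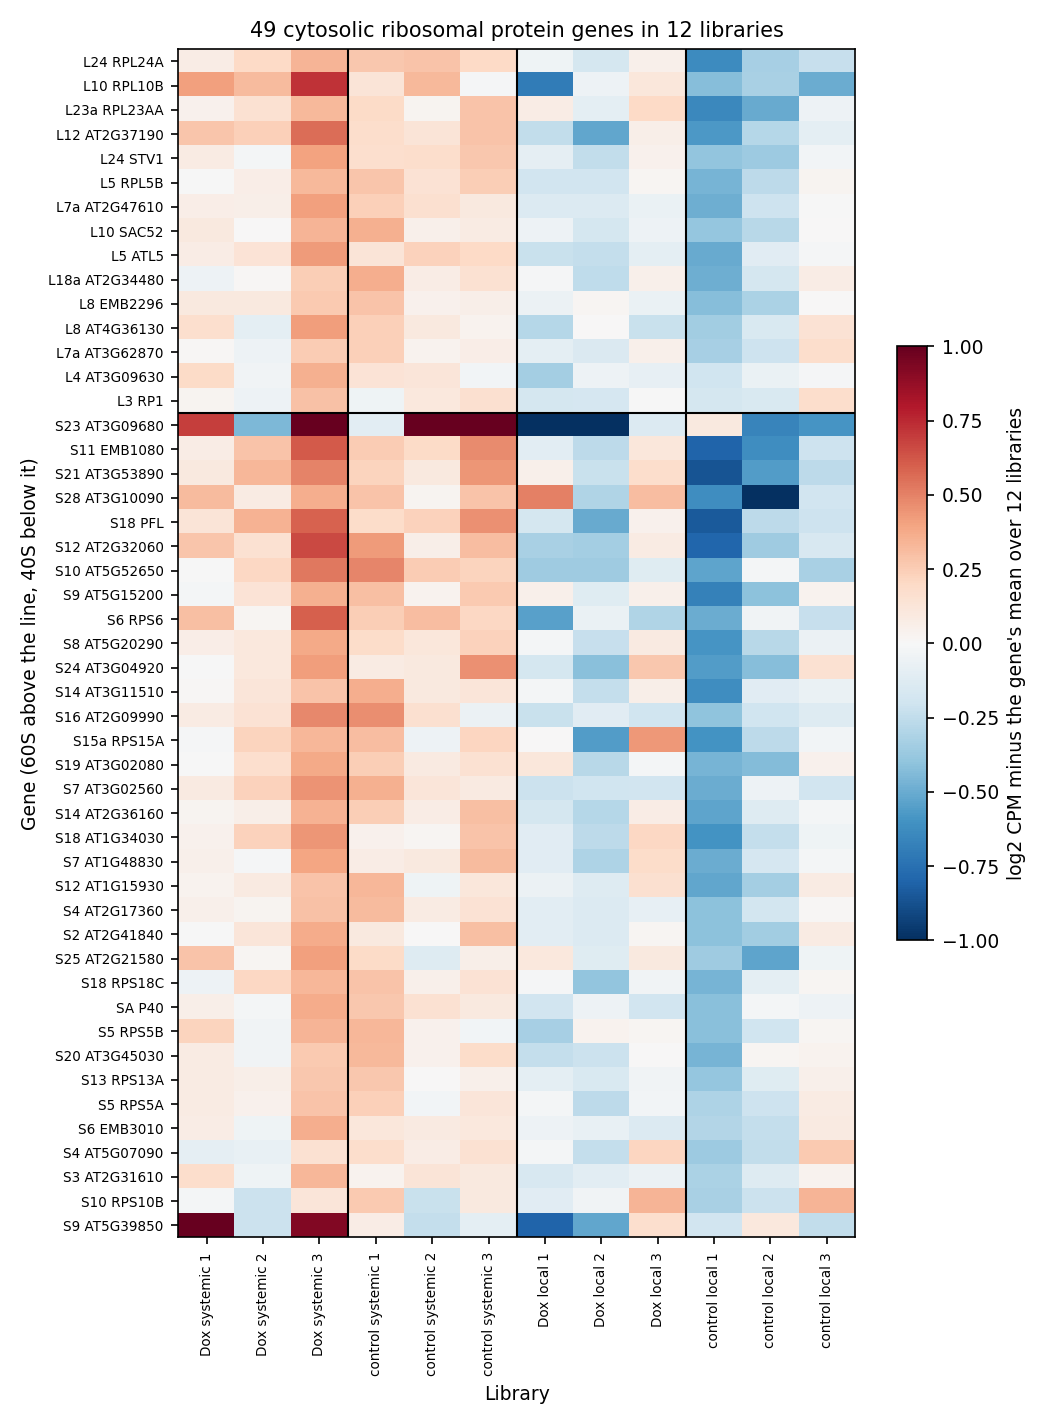
Level of each of the 49 genes in each of the 12 libraries, as log2 CPM minus the gene's own mean over all libraries (colour, limited to -1 and 1), with 60S genes above the line and 40S genes below it, each ordered by the control systemic over local difference. Dox systemic library 3 is above the mean in every row and control local library 1 is below it in all rows but 1, the S23 gene AT3G09680.

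Levels per transcript length differed widely between the genes. The highest mean over all libraries was that of the S8 gene AT5G20290 (364 CPM per kb), followed by the S9 gene AT5G15200 (323) and SAC52 (255), one of the L10 genes, known from a suppressor of the dwarf acaulis phenotype. The median over the 49 was 145 CPM per kb. At the low end were the S23 gene AT3G09680 (0.855 CPM per kb), RPL10B (10.9) and the second S9 gene AT5G39850 (15.5). The low members each have an abundant relative. The S23 gene AT3G09680 ranged from 0.119 to 1.36 CPM over the 12 libraries, against 174 to 320 CPM for AT5G02960, the other S23 gene, which is not among the 49.

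The local comparison asks what changed in the leaves that received Dox. No ribosomal protein gene passed edgeR's quasi-likelihood test at an adjusted p under 0.05 (0 of 49, smallest adjusted p = 0.902), and none of all 19403 genes tested did (0%). DESeq2 called 0 of the 49 as well, against 0.0722% of all genes, and limma-voom 0, against 0%. At an unadjusted p under 0.05, 5 of the 49 were higher in Dox local leaves and 0 were lower, against 4.72% of all genes in either direction and 2.66% higher. The median log2 fold change was 0.11 over the 49 and 0.02 over all genes, and 42 of the 49 values were above 0, against 52.2% of all genes. By subunit, 30 of 34 values of 40S genes and 12 of 15 values of 60S genes were above 0, with medians of 0.11 in both.

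The 5 genes with the lowest unadjusted p were 3 of the 40S and a pair of the 60S subunit. The S28 gene AT3G10090 had 24.6, 14.1 and 21.5 CPM in Dox local leaves, against 11.3, 8.39 and 15.2 CPM in control local leaves. Its groups overlapped through Dox local library 2, and its log2 fold change was 0.79 (SE 0.24). The S21 gene AT3G53890 had 71.9, 59.5 and 78.2 CPM in Dox local leaves, against 38.1, 47.0 and 57.8 CPM in control local leaves, a log2 difference of 0.55 (SE 0.19) with no overlap. EMB1080, an S11 gene required for embryo development, had 114, 102 and 133 CPM in Dox local leaves and 70.5, 79.8 and 106 CPM in control local leaves. Its log2 fold change was 0.45 (SE 0.20), with overlapping groups.

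In the 60S subunit, RPL23AA encodes L23a, a protein at the exit of the tunnel through which the new chain leaves the ribosome. Its level was 172, 153 and 188 CPM in Dox local leaves, against 105, 115 and 158 CPM in control local leaves, a log2 fold change of 0.44 (SE 0.18) with overlapping groups. RPL24A, an L24 gene named after its values were seen, had 102, 92.6 and 108 CPM in Dox local leaves, against 67.7, 83.4 and 89.2 CPM in control local leaves. Its log2 fold change was 0.33 (SE 0.15). It and the S21 gene AT3G53890 were the only 2 of the 49 (4.08%) whose Dox local libraries all lay above the control local libraries, against 4.14% of all genes, which is no more than the background. In edgeR the adjusted p of each of these 5 genes was 0.902.

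At the other end stood the S23 gene AT3G09680 at 0.119, 0.217 and 0.407 CPM in Dox local leaves, against 0.477, 0.283 and 0.297 CPM in control local leaves. At this depth a difference of -0.48 (SE 0.70) was not detectable. The S9 gene AT5G39850 had 8.68, 10.5 and 17.0 CPM in Dox local leaves, against 13.2, 16.2 and 12.8 CPM in control local leaves, a log2 difference of -0.22 (SE 0.32). That value ran from -0.55 without Dox local library 3 to -0.0318 without Dox local library 1. RP1, which encodes L3 of the peptidyl transferase centre, gave -0.07 (SE 0.17), and the L4 gene AT3G09630 gave -0.06 (SE 0.16). None of these differences exceeded the spread between libraries.

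Among genes known from mutants, the local differences were small. PFL, an S18 gene whose loss gives pointed leaves, had 84.3, 67.3 and 98.4 CPM in Dox local leaves and 53.3, 79.7 and 82.7 CPM in control local leaves (0.21 (SE 0.21) on the log2 scale). RPS13A, which has a similar leaf phenotype, differed by 0.05 (SE 0.15), and RPS5A, needed for cell division in embryos and leaves, by 0.04 (SE 0.16). STV1, an L24 gene needed for reinitiation of translation on messages of auxin response factors, differed by 0.16 (SE 0.17). Both L5 genes, whose protein binds the small 5S rRNA, were close to 0, at 0.01 for ATL5 and 0.10 for RPL5B. The S6 genes were at -0.05 (RPS6) and 0.05 (EMB3010), and SAC52 at 0.12 (SE 0.17). Without control local library 1 the difference was 0.0368 for PFL and 0.0388 for SAC52.

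The small excess of positive values in local leaves rested on single libraries, most on control local library 1. Without that library the median over the 49 was -0.01 with 23 above 0, against a median of 0.01 over all genes. Without Dox local library 3 the median over the 49 was 0.05 with 31 above 0, against 0.01 over all genes. Without control local library 3 it was 0.24 with 44 above 0, and without Dox local library 1 it was 0.12 with 43 above 0. The number at an unadjusted p under 0.05 was 1 without control local library 1 (2.04%, against 1.67% of all genes in either direction). It was 9 without control local library 3 (18.4%, against 12.8%) and 2 without Dox local library 3 (4.08%, against 5.22%). With total counts alone it was 2 (4.08%, against 4.53%). It was 3 with RLE factors (6.12%, against 4.73%), with upper-quartile factors (6.12%, against 4.7%) and with no filter (6.12%, against 4.12%). In DESeq2 it was 5 (10.2%, against 6.05%), as in limma-voom (10.2%, against 4.31%). With total counts as the only scaling the median over the 49 was -0.01 and that of all genes -0.12, so that the 49 lay above all genes by 0.11, against 0.09 with TMM. Of the 49 values, 22 were then above 0, and 35 were with upper-quartile factors. The 49 genes took 0.699 ± 0.109% of the counts in Dox local libraries and 0.699 ± 0.0671% in control local libraries (SD, n = 3 each).

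In systemic leaves the comparison asks what Dox on local leaves changed at a distance. Again no ribosomal protein gene passed edgeR's test (0 of 49, smallest adjusted p = 0.552, against 0% of all genes). DESeq2 called 0 of the 49, against 0.701% of all genes, and limma-voom 0, against 0%. At an unadjusted p under 0.05 there was 1 gene of the 49, against 8.61% of all genes, and in 0 of the 49 did the Dox and control systemic libraries separate without overlap, against 16.4% of all genes in either direction. The median log2 fold change was 0.02 over the 49 and 0.00 over all genes, with 30 of the 49 values above 0, against 49.9% of all genes. Medians by subunit were 0.03 for the 40S and 0.02 for the 60S genes.

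The exception at an unadjusted p was the low S9 gene AT5G39850, with 30.8, 13.04 and 28.7 CPM in Dox systemic leaves, against 15.9, 12.8 and 14.1 CPM in control systemic leaves. Dox systemic libraries 1 and 3 were high and library 2 was within the control range. Its log2 fold change was 0.76 (SE 0.32), with an unadjusted p of 0.0356 and an adjusted p of 0.552 in edgeR. RPL10B, the minor L10 gene, had 13.1, 12.2 and 16.3 CPM in Dox systemic leaves, against 10.8, 12.3 and 9.77 CPM in control systemic leaves. Its log2 fold change was 0.34 (SE 0.22), and its groups overlapped. The S25 gene AT2G21580 gave 0.20 (SE 0.17), and the L12 gene AT2G37190, for a protein at the base of the ribosomal stalk, gave 0.17 (SE 0.19). Without Dox systemic library 3 the difference was 0.21 for RPL10B, 0.11 for AT2G21580 and 0.0615 for AT2G37190.

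The lowest values in systemic leaves were close to 0 as well. They were those of the S4 gene AT5G07090 (-0.13 (SE 0.20)), the L18a gene AT2G34480 (-0.13 (SE 0.19)), RPS10B (-0.09 (SE 0.22)) and RPL5B (-0.09 (SE 0.17)). PFL had 105, 121 and 144 CPM in Dox systemic leaves and 108, 112 and 131 CPM in control systemic leaves, a log2 difference of 0.07 (SE 0.21). RPS6 had 227, 187 and 279 CPM in Dox systemic leaves and 218, 229 and 213 CPM in control systemic leaves, a difference of 0.07 (SE 0.20). EMB3010 was at 0.04 (SE 0.16), RPS5A at 0.02 (SE 0.16), RPS13A at 0.03 (SE 0.15), STV1 at -0.04 (SE 0.17), ATL5 at 0.03 (SE 0.18) and SAC52 at -0.02 (SE 0.17). For each of them the SE was larger than the difference.

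Dox systemic library 3 carried the sign of the systemic median. Without it the median over the 49 was -0.08 with 7 above 0, and without control systemic library 2 it was -0.03 with 18 above 0. With total counts as the only scaling it was 0.14 and that of all genes 0.11, so that the 49 lay above all genes by 0.03, against 0.02 with TMM. Dividing-cell markers summed to 47.5 CPM in that library, against 27.96 and 21.8 CPM in the other Dox systemic libraries and 15.7 to 42.8 CPM in control systemic libraries. Their part in the result was not tested.

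**Figure D3:**
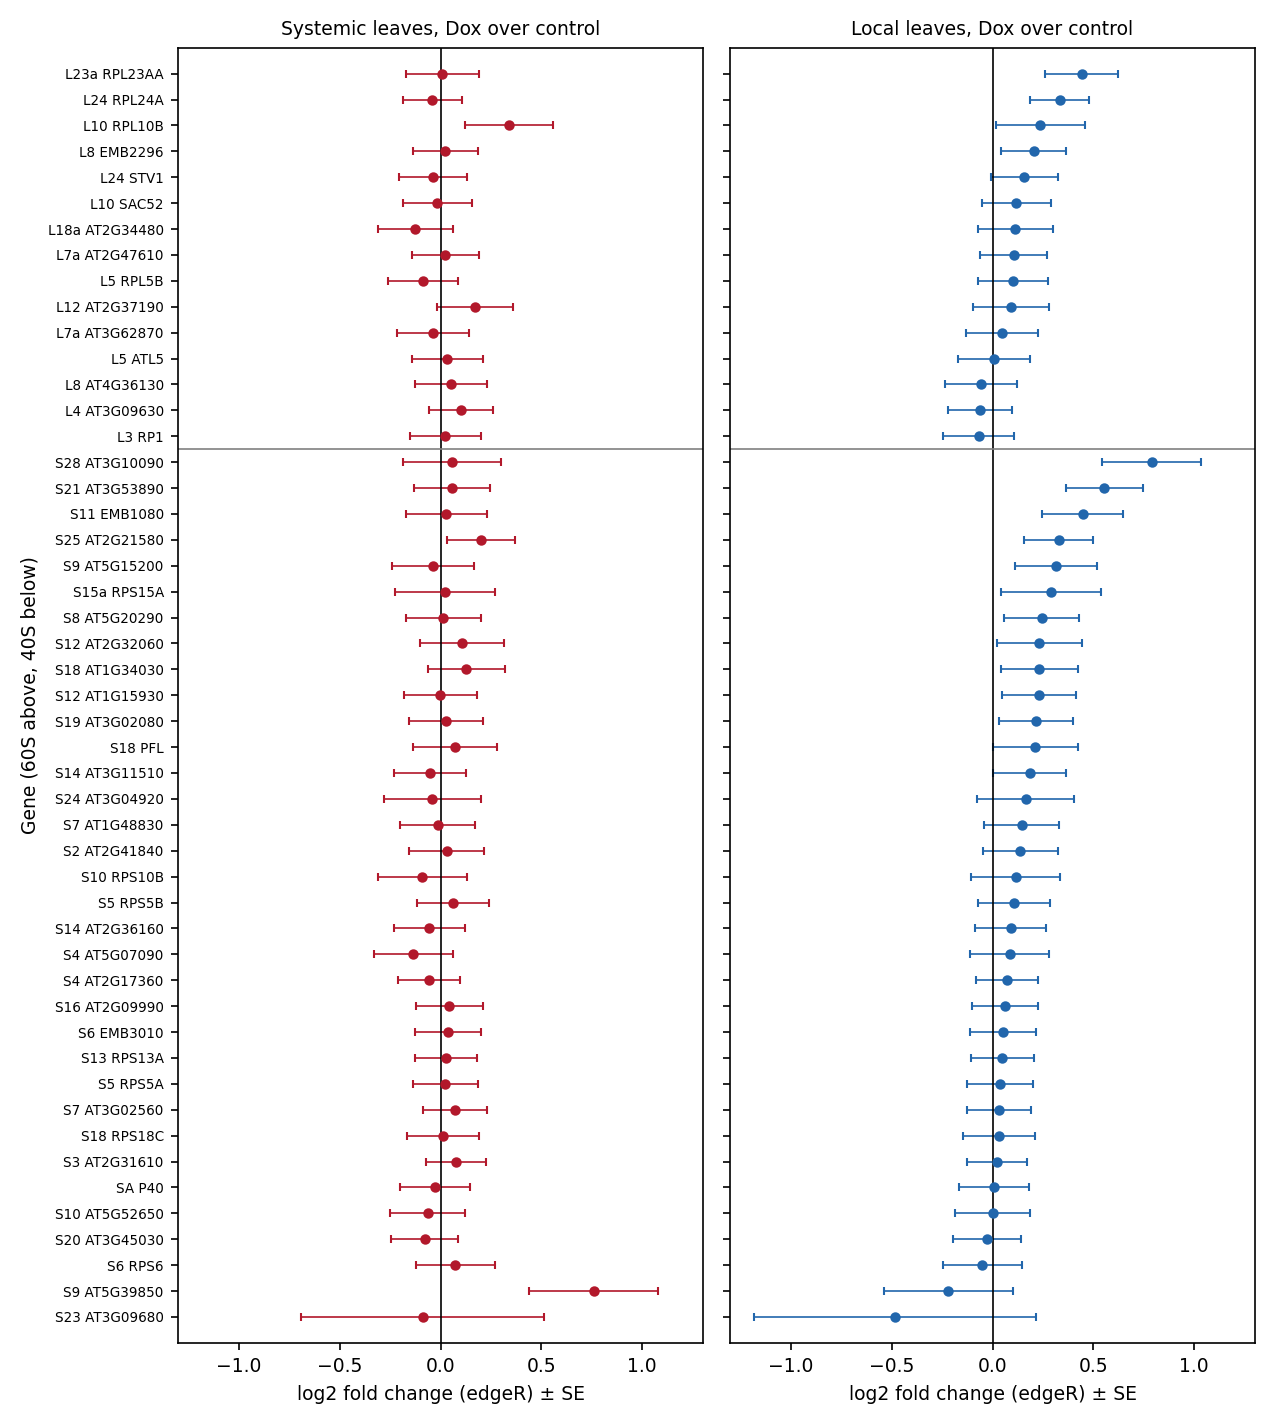
Dox over control log2 fold change (edgeR, point) with its SE (bar) for each of the 49 genes in systemic leaves (left) and local leaves (right), 60S genes above the grey line and 40S genes below it. Most systemic values lie within 0.1 of 0, apart from the S9 gene AT5G39850 at 0.76, and most local values lie to the right of 0, up to 0.79 for the S28 gene AT3G10090.

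The difference between the Dox responses of local and systemic leaves was tested as an interaction. No gene of the 49 passed in edgeR (0 of 49, smallest adjusted p = 0.832, against 0% of all genes). DESeq2 called 0 of the 49, against 0.00515% of all genes, and limma-voom 0, against 0%. In edgeR 0 of the 49 had an unadjusted p under 0.05, against 5.2% of all genes. The median over the 49 was 0.12 (local minus systemic), with 38 above 0 (51.1% of all genes), and it was 0.01 over all genes. The extremes were the S28 gene AT3G10090 at 0.73 (SE 0.34) and the S9 gene AT5G39850 at -0.98 (SE 0.45), neither past the threshold. Without control local library 1 the median was -0.02, against 0.01 over all genes, so its sign rested on that library. With total counts as the only scaling it was -0.12 and that of all genes -0.24, so that the 49 lay above all genes by 0.12, against 0.11 with TMM.

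Differences between systemic and local leaves, called position differences here, were wider in these genes. Only local leaves were given Dox or water directly, so leaf position and the application itself cannot be told apart. In Dox plants, 48 of the 49 genes had a positive systemic over local log2 fold change, against 52.1% of all genes, with a median of 0.26 over the 49 and 0.02 over all genes. In 20 of the 49 (40.8%) every Dox systemic library lay above every Dox local library, against 11.9% of all genes. An unadjusted p under 0.05 was reached by 11 of the 49, all higher in systemic leaves, against 17.9% of all genes in either direction and 7.68% higher. None of the 49 passed edgeR's test (smallest adjusted p = 0.220, against 0.00515% of all genes). DESeq2 called 0 of them, against 3.06% of all genes, and limma-voom 0, against 0.00515%.

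RPS6 had 227, 187 and 279 CPM in Dox systemic leaves, against 126, 176 and 149.6 CPM in Dox local leaves, a log2 difference of 0.62 (SE 0.20) without overlap. RPL10B had 13.1, 12.2 and 16.3 CPM in Dox systemic leaves, against 6.06, 9.496 and 10.6 CPM in Dox local leaves (0.67 (SE 0.22)), and the L12 gene AT2G37190 had 163, 159 and 199 CPM in Dox systemic leaves, against 114, 94.1 and 140.2 CPM in Dox local leaves (0.58 (SE 0.19)). Both were without overlap, as was PFL (0.56 (SE 0.21)). The single negative value was that of RPS10B, -0.11 (SE 0.22), with 224, 196 and 247 CPM in Dox systemic leaves and 210.0, 222 and 288 CPM in Dox local leaves. The S28 gene AT3G10090 gave 0.05 (SE 0.24), and EMB1080 gave 0.42 (SE 0.20).

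In control plants, all 49 genes had a positive systemic over local log2 fold change, against 49.3% of all genes, with a median of 0.38 over the 49 and -0.01 over all genes. Medians by subunit were 0.41 for the 40S and 0.38 for the 60S genes. In 30 of the 49 (61.2%) every control systemic library lay above every control local library, against 8.02% of all genes. An unadjusted p under 0.05 was reached by 24 of the 49, all higher in systemic leaves, against 6.88% of all genes in either direction. None of the 49 passed edgeR's test at an adjusted p under 0.05 (smallest 0.549, 0% of all genes), limma-voom called 0, against 0% of all genes, and DESeq2 called 1, against 0.294% of all genes. Control local and control systemic libraries of the same number deviated together. That match was found in these same data and is not given by the labels, so the block that rests on it was not planned. In a fit of these 2 groups with the number as a block, 0 of the 48 members tested passed (smallest adjusted p = 0.0754, edgeR), against 0.378% of all genes. In that fit 25 of the 48 (52.1%) had an unadjusted p under 0.05, all higher, with a median log2 fold change of 0.40. Of all genes, 17.1% did so in either direction and 8.57% higher. Without the block, the edgeR fit of these 2 groups gave 14 of the 48 at that level (29.2%), all higher. Of all genes, 6.27% were then at that level in either direction and 4.48% higher, and the smallest adjusted p of the 48 was 0.769.

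The gene called by DESeq2 was RPL24A. It had 126, 128 and 120.0 CPM in control systemic leaves, against 67.7, 83.4 and 89.2 CPM in control local leaves, so the lowest systemic library exceeded the highest local one. Its log2 fold change was 0.64 (SE 0.15) in edgeR (adjusted p = 0.549) and 0.62 (SE 0.15) in DESeq2 (adjusted p = 0.0305). Over all alternatives run, the smallest adjusted p among the 49 ranged from 0.0305 to 0.95 in this comparison.

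The comparison shares the control local libraries with that of Dox in local leaves, so values of the same genes are given here only side by side. EMB1080 had 147, 140.3 and 171 CPM in control systemic leaves, against 70.5, 79.8 and 106 CPM in control local leaves (0.84 (SE 0.20) on the log2 scale). The S21 gene AT3G53890 had 80.7, 74.1 and 94.4 CPM in control systemic leaves, against 38.1, 47.0 and 57.8 CPM in control local leaves (0.80 (SE 0.19)). The S28 gene AT3G10090 had 21.1, 17.7 and 21.1 CPM in control systemic leaves, against 11.3, 8.39 and 15.2 CPM in control local leaves (0.78 (SE 0.24)). In each of the 3 genes the libraries of the 2 positions did not overlap.

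PFL had 108, 112 and 131 CPM in control systemic leaves, against 53.3, 79.7 and 82.7 CPM in control local leaves, a log2 difference of 0.71 (SE 0.21) without overlap. RPS6 had 218, 229 and 213 CPM in control systemic leaves, against 131, 180.3 and 157 CPM in control local leaves (0.50 (SE 0.20)), also without overlap. The other S6 gene, EMB3010, overlapped and gave 0.24 (SE 0.16). STV1 (0.46 (SE 0.17)), RPL5B (0.44 (SE 0.18)), ATL5 (0.38 (SE 0.18)) and SAC52 (0.38 (SE 0.17)) did not overlap between positions, while RPS13A (0.26 (SE 0.15)) and RPS5A (0.25 (SE 0.16)) did. The largest value, 1.26 (SE 0.64) for the S23 gene AT3G09680, belongs to a gene with few reads and overlapping groups. The smallest were those of the S9 gene AT5G39850 (0.02 (SE 0.32)), RPS10B (0.10 (SE 0.22)) and RP1 (0.12 (SE 0.17)).

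The 2 position comparisons share no library, so their values can be set against each other. Of the 49 genes, 48 were positive in both and 15 were without overlap in both, against 1.8% of all genes higher without overlap in both. The 15 were 75% of the 20 in Dox plants, where 61.2% of all 49 were without overlap in control plants. They were 50% of the 30 in control plants, where 40.8% of all 49 were without overlap in Dox plants. Those 15 were ATL5, EMB2296, SAC52, RPL10B, RPL24A, RPS6, PFL, P40 and the L12, L7a, S10, S4, S7, S12 and S16 genes AT2G37190, AT2G47610, AT5G52650, AT2G17360, AT3G02560, AT2G32060 and AT2G09990. The control value was larger than the Dox value in 38 of the 49. Across the 49 genes, which are not independent, the values of both comparisons had r = 0.50 and rho = 0.31. Without AT3G09680 and EMB1080, the 2 genes farthest from the median in control plants, r was 0.12 and rho 0.24. These 2 were picked by the control values alone, while AT5G39850 (0.02 in control and 1.00 in Dox plants) stayed in. Pearson's r thus depended on which genes were kept, and the rank correlation was low with and without those 2.

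**Figure D4:**
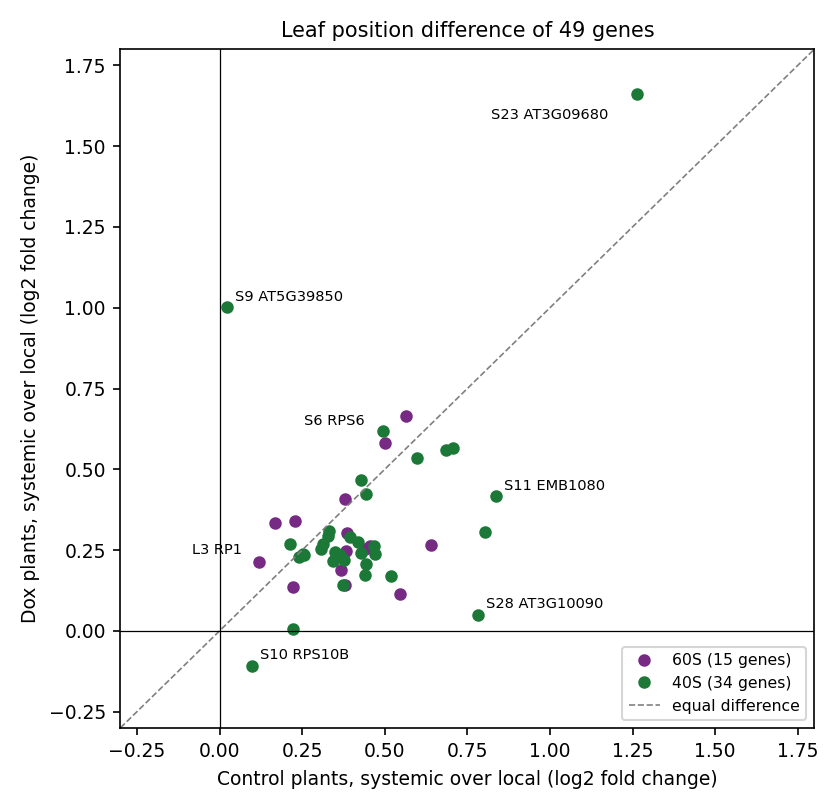
Systemic over local log2 fold change (edgeR) of each of the 49 genes in Dox plants (vertical axis) and in control plants (horizontal axis), coloured by subunit, with a dashed line where both are equal. All points lie right of 0 and all but RPS10B lie above 0. The S9 gene AT5G39850 stands high on the vertical axis alone, and the S28 gene AT3G10090 far out on the horizontal axis alone.

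The size of the position difference depended on single libraries. In Dox plants the median was 0.16 without Dox systemic library 3, with 46 positive. Without it 3 of the 49 (6.12%) had an unadjusted p under 0.05, all higher in systemic leaves. Of all genes, 13.5% did so in either direction and 5.78% higher. There were 7 (14.3%) at that level without Dox local library 1, all higher, against 9.25% of all genes in either direction and 4.13% higher. Without Dox local library 2 there were 7, all higher, against 22.7% in either direction and 10.4% higher. With all libraries there were 11 (22.4%). With total counts as the only scaling the Dox median was 0.54 and that of all genes 0.31, so that the 49 lay above all genes by 0.23, against 0.24 with TMM. The number at an unadjusted p under 0.05 was then 45, all higher (91.8%, against 24.7% of all genes in either direction and 20% higher). With upper-quartile factors it was 24, all higher (49%, against 19.2% in either direction and 11.9% higher). Without control local library 1 the control median was 0.28 and 47 of the 49 values were positive. Of the 49, 7 (14.3%) then had an unadjusted p under 0.05, against 4.4% of all genes in either direction. At that level there were 14 without control local library 2 (28.6%, against 6.69%), 11 without control systemic library 1 (22.4%, against 6.24%) and 13 without control systemic library 3 (26.5%, against 9.84%), while there were 24 (49%) with all libraries. Dividing-cell markers were also higher in systemic leaves, with 8 of 8 positive in both comparisons and medians of 0.54 in Dox plants and 0.81 in control plants. Their summed level was 21.8 to 47.5 CPM in Dox systemic, 15.7 to 42.8 CPM in control systemic, 19.4 to 23.1 CPM in Dox local and 12.5 to 27.5 CPM in control local libraries, so the groups overlapped, and their part in the position difference was not tested.

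Where the 49 hold more than 1 gene for a protein, the proportions of the copies varied by 2.18 points of percent over the 12 libraries in L10 and by up to 17.2 points in S10. SAC52 gave 95.6 to 97.8% of the counts of the pair of L10 genes in all libraries, and AT5G15200 gave 91.1 to 97.4% of the pair of S9 genes. ATL5 gave 53.3 to 58.4% of the L5 counts. By contrast, RPS10B gave 61.2 ± 3.78% of the S10 counts in Dox systemic and 61.3 ± 2.99% in control systemic leaves, against 70.8 ± 1.59% in Dox local and 68.9 ± 6.31% in control local leaves (SD, n = 3 each).

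In other families a less abundant copy had a higher mean share in systemic leaves. RPS6 gave 46.3 ± 1.64% of the S6 counts in Dox systemic and 45.8 ± 1.11% in control systemic leaves, against 39.6 ± 4.18% in Dox local and 41.5 ± 4.65% in control local leaves (SD, n = 3 each). PFL gave 31.2 ± 0.677% of the counts of the 3 S18 genes in Dox systemic and 31.1 ± 1.85% in control systemic leaves, against 27.4 ± 0.921% in Dox local and 26.2 ± 1.47% in control local leaves (SD, n = 3 each). The S12 gene AT2G32060 gave 43.5 ± 2.69% of the S12 counts in Dox systemic and 41.8 ± 0.956% in control systemic leaves, against 36.6 ± 1.61% in Dox local and 36.7 ± 2.26% in control local leaves (SD, n = 3 each). These shares had no test, were picked after the values had been seen, and depend on how the counting divided reads between near-identical copies.

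**Figure D5:**
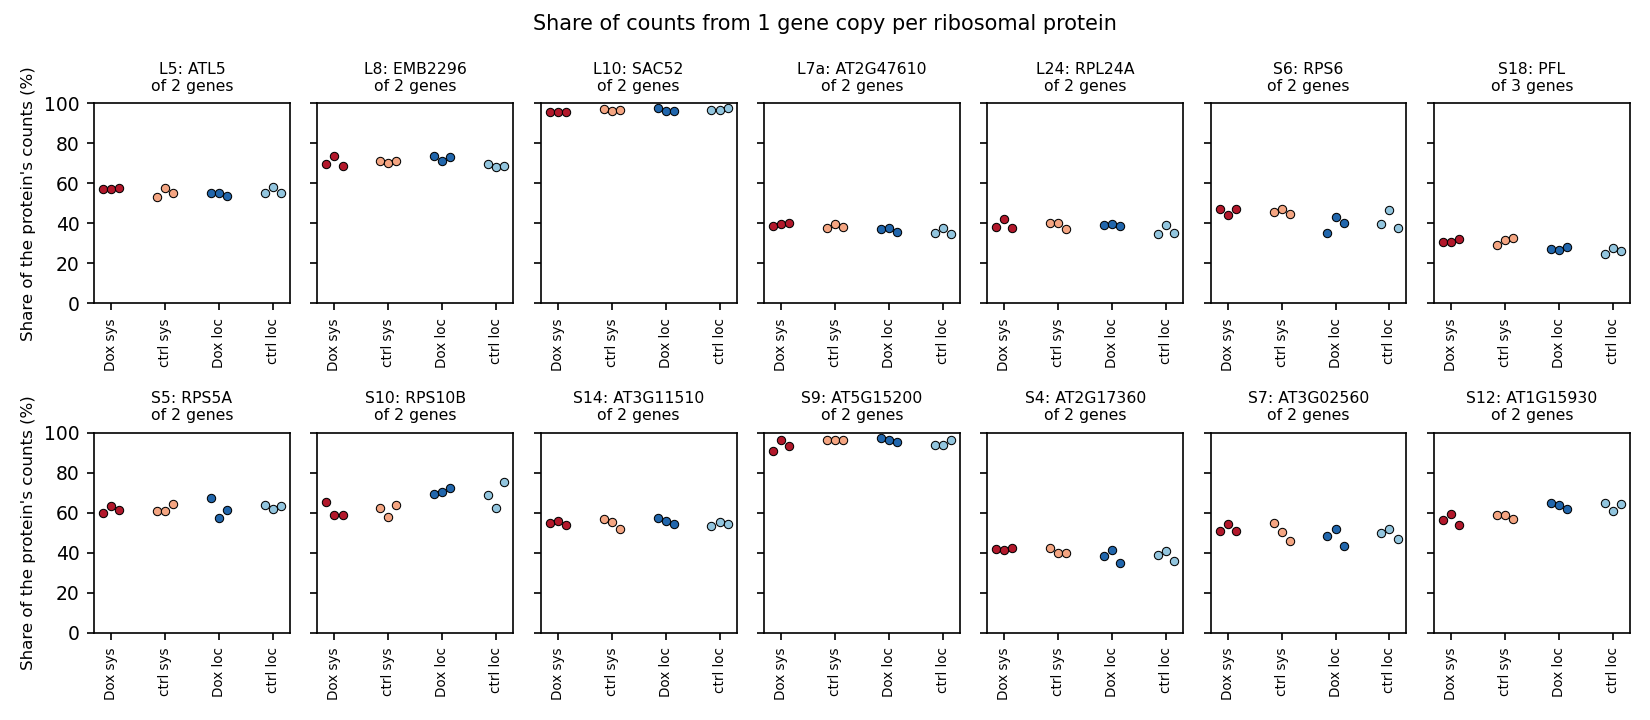
Share (%) of the counts of 14 ribosomal proteins that came from the named gene, 1 point per library, among the 2 or 3 genes of that protein in the set (sys, systemic; loc, local; ctrl, control). L10 and S9 come almost wholly from the named gene, and RPS10B, RPS6, PFL and AT1G15930 have group means closer between Dox and control leaves of 1 position than between positions.

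Related gene groups were set beside the 49, in the fit of all 12 libraries alone, and were not checked by leaving libraries out. Of the other cytosolic ribosomal protein genes 159 passed the filter, and their medians are given here beside those of the 49. In Dox over control, 105 of 159 were positive in systemic leaves (median 0.05, against 0.02 for the 49) and 134 of 159 in local leaves (median 0.20, against 0.11). In systemic over local, 156 of 159 were positive in Dox plants (median 0.31, against 0.26) and 157 of 159 in control plants (median 0.45, against 0.38). Of all genes, 49.9, 52.2, 52.1 and 49.3% were positive in these 4 comparisons, in the same order. None of the 159 passed in edgeR. By position, the numbers at an unadjusted p under 0.05 were 39 higher and 1 lower in Dox plants, against 7.68% of all genes higher and 17.9% in either direction. In control plants 91 were higher, against 5.02% of all genes higher. In Dox over control, 18 were higher and 0 lower in local leaves, against 2.66% of all genes higher. In systemic leaves 2 were higher and 0 lower, against 3.81% of all genes higher.

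The 17 ribosome assembly factors, which take part in building ribosomes, were all positive in systemic leaves under Dox (median 0.28), against 49.9% of all genes. There 4 of the 17 had an unadjusted p under 0.05, all higher, against 8.61% of all genes in either direction and 3.81% higher. In local leaves 14 of the 17 were negative (median -0.09), while 52.2% of all genes were positive. The interaction was negative in all 17 (median -0.40), while 51.1% of all genes were positive. By position, all 17 were positive in Dox plants (median 0.46), against 52.1% of all genes. There 7 had an unadjusted p under 0.05, all higher, against 7.68% of all genes higher. In control plants 12 of the 17 were positive (median 0.06), against 49.3% of all genes, and 0 reached that level. None of the 17 passed in edgeR. NUC-L2, a nucleolin gene, had 4.59 ± 2.64 CPM in Dox systemic leaves and 1.83 ± 0.306 CPM in control systemic leaves (SD, n = 3 each), a log2 fold change of 1.32 (SE 0.41, adjusted p = 0.480 in edgeR). FIB2, a fibrillarin gene, gave 0.61 (SE 0.35) and NAP57, a pseudouridine synthase gene, gave 0.54 (SE 0.24) in the same comparison.

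The 30 genes of the plastid ribosome that were tested differed in sign from the 49 in part. All 30 were negative in systemic leaves under Dox (median -0.33), where 49.9% of all genes were positive, and 8 had an unadjusted p under 0.05, against 8.61% of all genes. All 30 were positive in local leaves (median 0.21), against 52.2% of all genes. The interaction was positive in all 30 (median 0.58), against 51.1% of all genes, and 17 had an unadjusted p under 0.05, against 5.2%. By position, 7 of the 30 were positive in Dox plants (median -0.06), against 52.1% of all genes, and all 30 in control plants (median 0.52), against 49.3%. None of the 30 passed in edgeR in any of these comparisons.

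Elongation factor and RACK1 genes had medians of 0.13 in systemic and 0.07 in local leaves under Dox, and 8 of 8 were positive by position, with medians of 0.21 in Dox plants and 0.27 in control plants. The 8 genes listed for the TOR and S6 kinase pathway include NAC082, a NAC domain gene. They had medians of 0.03 in systemic and -0.08 in local leaves under Dox, and of 0.00 by position in Dox plants and -0.13 in control plants. S6K2, which encodes an S6 kinase, varied widely, at 101 ± 72.3 CPM in Dox systemic and 82.4 ± 74.98 CPM in control systemic leaves, and at 215 ± 66.9 CPM in Dox local and 139 ± 91.2 CPM in control local leaves (SD, n = 3 each). No gene of either group passed in edgeR.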

How the data were processed

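Whole-number read counts per gene were used as the authors deposited them, in 4 groups of 3 columns. Tools listed in the submitters' processing notes are Trimmomatic (version 0.39), FastQC (0.11.9), HISAT2, featureCounts (1.6.3) and DESeq2, with no role for each. A TruSeq kit served for mRNA and a SMARTER mRNA-Seq kit for the libraries, per the labels' protocols. No source used here gives the build, the strand setting or what was done with multi-mapping reads, so the counting may have split reads of near-identical copies. Names and transcript lengths came from the TAIR10.1 annotation by locus identifier.

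Counts were fitted with edgeR 4.0.16 in R 4.3.3 (quasi-likelihood test, TMM normalization, filterByExpr at a minimum count of 10), with 4 group means over 12 libraries and Benjamini-Hochberg adjustment over 19403 genes. The threshold was an adjusted p of 0.05. Residual degrees of freedom were 8. The script was tested on simulated data. CPM are TMM-scaled. Alternatives were other scalings, no filter, DESeq2 1.42.0, limma-voom (limma 3.58.1), fits on 2 groups, a replicate block and leaving libraries out. The members and lists were chosen with earlier results of these data known. Genes named were the 4 highest and 4 lowest log2 fold changes per Dox comparison, the 3 highest and 3 lowest levels per kb, genes with known mutants or roles, and up to 3 per related list. The labels give no pairing. Libraries of the same number deviated together in all 3 pairs of control systemic with control local leaves (r = 0.31 to 0.76, against -0.59 to 0.28 for other numbers), while no other pair of groups had all 3 correlations over 0.1, so that a blocked fit is given beside that comparison. Names in the position comparisons and RPL24A were added after values were seen. Promoter and protein sequences were not analysed here.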

Additional observations from a re-analysis of the deposited data

How the results depend on the processing

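Across the alternatives run, 0 of the 49 genes passed in any comparison, apart from RPL24A under DESeq2 in systemic over local leaves of control plants (1 gene).

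Over all genes, DESeq2 called 136 in Dox over control of systemic leaves and 14 of local leaves, 1 in the interaction, 594 by position in Dox plants and 57 in control plants, against 0, 0, 0, 1 and 0 in edgeR. By position in Dox plants, 0 were called with total counts alone, 0 with only the groups compared, 0 leaving out Dox local library 1 and control local library 3, 2 with a replicate block, 0 with only the groups compared and a replicate block, and 0 to 13 leaving out single libraries. In control plants, 71 were called with only the groups compared and a replicate block, and 1 was called with upper-quartile factors, with total counts alone and with no filter. In systemic Dox over control, 2 were called with only the groups compared and a replicate block, and 0 to 1 leaving out single libraries.

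With total counts alone the median of the 49 was -0.12 in the interaction and 0.54 by position in Dox plants, where the medians of all genes were -0.24 and 0.31. In Dox plants 41 of the 49 (83.7%) were then without overlap, against 29.3% of all genes (20 with TMM, 40.8%, against 11.9%). Leaving out Dox local library 1 and control local library 3, 46 (93.9%) were without overlap in control plants, against 13.9% of all genes (30 with all libraries, 61.2%, against 8.02%). Control local library 3 had the highest median deviation of the 49 among control local libraries (-0.01), and groups with fewer libraries separate more easily. The count without control local library 1 was not taken. These checks of overlap, and the fits of only the groups compared with a replicate block, were chosen after seeing the data.

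Log2 values of named genes that changed sign, none past the threshold, were these. In local leaves, ATL5 was -0.0031 with RLE factors, -0.0386 with upper-quartile factors, -0.117 with total counts, -0.003 in DESeq2, -0.0123 with only the groups compared and -0.0013 with these and a replicate block. RPS5A was -0.0104 with upper-quartile factors and -0.0915 with total counts, with which RPS13A was -0.0767, EMB3010 -0.0742, SAC52 -0.0074 and RPL5B -0.015. Leaving out Dox local library 1 and control local library 3, RP1 was 0.0471, AT3G09630 0.0268 and RPS6 0.031. In systemic leaves, SAC52 was 0.0041 with upper-quartile factors and 0.10 with total counts, with which RPS10B was 0.0326, RPL5B 0.0277 and STV1 0.0804.

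Leaving out single libraries, local values ranged from -0.132 to 0.0532 for RP1, -0.117 to 0.023 for AT3G09630, -0.0452 to 0.160 for RPS5A, -0.125 to 0.108 for ATL5, -0.0594 to 0.154 for RPS13A, -0.178 to 0.0661 for RPS6, -0.0216 to 0.179 for EMB3010 and -0.0077 to 0.243 for RPL5B. Systemic values ranged from -0.120 to 0.0981 for SAC52, -0.0556 to 0.178 for PFL, -0.0544 to 0.101 for RPS5A, -0.0791 to 0.101 for ATL5, -0.169 to 0.0465 for STV1, -0.0437 to 0.125 for RPS13A, -0.0857 to 0.202 for RPS6, -0.0851 to 0.122 for EMB3010 and -0.215 to 0.034 for RPS10B. The other named values kept their sign. In local leaves they ranged from 0.0368 to 0.344 for PFL, 0.0388 to 0.238 for SAC52, 0.0848 to 0.285 for STV1, 0.323 to 0.638 for RPL23AA, 0.325 to 0.633 for EMB1080, 0.416 to 0.717 for AT3G53890, 0.60 to 1.03 for AT3G10090, -1.04 to -0.172 for AT3G09680 and -0.551 to -0.0318 for AT5G39850. In systemic leaves they ranged from 0.547 to 1.06 for AT5G39850, 0.207 to 0.432 for RPL10B, 0.113 to 0.301 for AT2G21580, 0.0615 to 0.229 for AT2G37190, -0.221 to -0.0279 for AT2G34480, -0.215 to -0.0915 for AT5G07090 and -0.194 to -0.0217 for RPL5B. The cause was not tested.

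Apart from control systemic with control local leaves, libraries with the same number did not deviate together throughout (at most 2 of 3 correlations over 0.1). With a replicate block over all 12 libraries, 0 of the 49 passed. At an unadjusted p under 0.05 there was then 1 gene in systemic Dox over control (2.04%, against 10.7% of all genes in either direction). There were 6 in local Dox over control (12.2%, against 7.45%) and 3 in the interaction (6.12%, against 7.5%). By position there were 12 in Dox plants (24.5%, against 22.4%) and 31 in control plants (63.3%, against 8.96%), all higher in systemic leaves. Of all genes, 10.3% were higher at that level in Dox plants and 6.11% in control plants.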
